A study of Homo sapiens with 6 samples.

Results

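Axon and vessel guidance genes encode the semaphorins, ephrins, netrins and slits and their plexin, Eph, UNC5 and ROBO receptors. They were taken here as the protein-coding genes on chromosomes 1 to 22 whose symbols follow the naming of these 8 families, leaving out EFNB2, EPHB4 and UNC5B. This gave 60 genes of 19122 protein-coding genes on these chromosomes: 20 semaphorins, 7 plexins, 6 ephrins, 13 Eph receptors, 4 netrins, 3 UNC5 receptors, 3 slits and 4 ROBO receptors. The naming rule uses no measured value.

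The study profiled H3K4me3, the histone mark of active and poised promoters, and H3K27me3, the mark laid down by Polycomb repressive complex 2, by chromatin immunoprecipitation and sequencing. The cells were endothelial, GATA2-positive and made from H1, an established line of human embryonic stem cells, either with vitamin C (labelled Vc+) or without it (labelled Vc-). Both conditions share the H1 genotype, and the labels describe cells of 1 line in culture without naming separate cultures. Each mark had 1 library in each condition, so no replicate check, test or p-value could be had, and every difference below is a difference between 2 libraries. For all 4 deposited files the condition in the file name is the reverse of that in the label, and the design text speaks of reporter-positive and reporter-negative cells where every label says positive. The protocol text names an H3K27me3 antibody alone, while the antibody labels name both marks. The libraries are called by their labels, Vc+ library and Vc- library, and each direction would turn round if the file names were right.

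Guidance cues are secreted or membrane-bound proteins that attract or repel growing axons, and the same systems steer migrating endothelial cells and sprouting vessels. Semaphorins signal through plexins, ephrins through Eph receptors in direct contact between cells, netrins through DCC and UNC5 receptors, and slits through ROBO receptors. Genes that carry H3K4me3 and H3K27me3 together are called bivalent, a state known from developmental genes that are silent or poised in stem cells and in lineages that do not use them.

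The deposited files list islands, which are stretches enriched for a mark. On chromosomes 1 to 22 they held 9534 H3K27me3 islands covering 51.1 Mb in the Vc+ library and 8893 covering 40.2 Mb in the Vc- library, and 21311 H3K4me3 islands covering 46.8 Mb in the Vc+ library and 21583 covering 42 Mb in the Vc- library. H3K27me3 thus covered 1.27 times as much of the genome in the Vc+ library with 1.07 times as many islands, and where a difference in length was called, the value scaled for this is also given. Read depth cannot be had from island lists. As a check of the labelled cell type, all 9 endothelial markers examined, among them PECAM1, CDH5, KDR and TEK, carried H3K4me3 in both conditions, a mark found at 78.8% of all genes in the Vc+ library and 78.7% in the Vc- library. Of 4 blood markers only ITGA2B did, and PTPRC, SPN and CD33 had no H3K4me3 island. All 6 neural markers carried H3K4me3, and 5 of them in the Vc+ library and 4 in the Vc- library carried H3K27me3 as well, as did 4 endothelial markers in the Vc+ library and 3 in the Vc- library. Of 5 pluripotency markers 3 carried H3K4me3 in each condition, with NANOG at none. SOX2 and DPPA4 did in both, POU5F1 in the Vc+ library alone, over 0.264 kb, and TDGF1 in the Vc- library alone. Of 5 mesenchymal markers 3 carried H3K4me3 in the Vc+ library and 4 in the Vc- library, with PDGFRB at none. The part of other cell types in the results was not tested, and an island is not a measure of expression.

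Guidance genes carried H3K27me3 about as often in both conditions and more often than genes at large. An island of this mark lay within 5 kb of the gene span at 29 of 60 guidance genes in the Vc+ library and at 29 of 60 in the Vc- library, that is at 48.3% (exact 95% interval 35.2 to 61.6, counting error only) in each. Over all protein-coding genes the share was 24.2% in the Vc+ library and 22% in the Vc- library. H3K4me3 was called at 56 of 60 guidance genes in each condition, or 93.3% (exact 95% interval 83.8 to 98.2), against 78.8% of all genes in the Vc+ library and 78.7% in the Vc- library.

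Guidance genes are long, with a median span of 62.8 kb against 24.5 kb for all protein-coding genes, and a longer window has more room for an island. The shares are therefore also given for 2 classes of span, which do not match the lengths fully. Among the 29 guidance genes with a span of 100 kb or more, 58.6% carried H3K27me3 in the Vc+ library and 62.1% in the Vc- library, where all genes in that class, with a median span of 175 kb against 294 kb for the guidance genes, stood at 38.1% in Vc+ and 35.2% in Vc-. Among the 31 shorter guidance genes the shares were 38.7% in Vc+ and 35.5% in Vc-, where all shorter genes stood at 21.4% in Vc+ and 19.4% in Vc-. In this class the median spans were close, 17.3 kb for the guidance genes and 17.7 kb for all genes. H3K4me3 was called at 100% of the longer guidance genes in each condition, against 94% of all longer genes in Vc+ and 94.1% in Vc-. Among the shorter guidance genes it was called at 87.1% in each condition, against 75.8% of all shorter genes in Vc+ and 75.6% in Vc-. No test was made of these differences, and neighbouring or related genes are not independent.

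**Figure D1:**
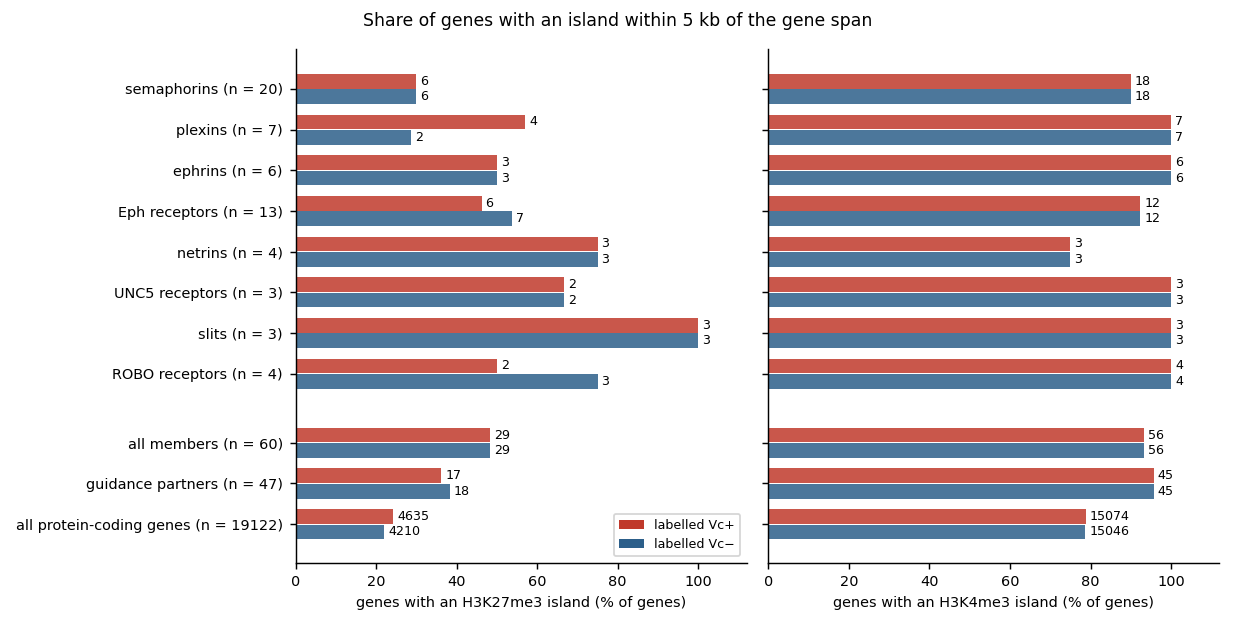
Share of genes with an island within 5 kb of the gene span (horizontal axes, percent of genes) for H3K27me3 on the left and H3K4me3 on the right, with red bars for the Vc+ library and blue bars for the Vc- library; the number beside each bar is the number of genes called. H3K27me3 was called at 29 of 60 members in each condition against 4635 of all 19122 genes in Vc+ and 4210 in Vc-, and at 3 of 3 slits and 6 of 20 semaphorins.

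Read together, the marks sorted the family members into 2 large classes of equal size. Both marks were present in both conditions at 26 of 60 guidance genes, where 18.5% of all genes have that state. H3K4me3 without H3K27me3 in both conditions was found at another 26, where 53.9% of all genes have that state. EPHA8, an Eph receptor of the nervous system, carried H3K27me3 alone in both conditions, and SEMA4A, SEMA6B and NTN5 had no island of either mark in any library. The 4 remaining genes were PLXNA2, PLXNB2, EPHA3 and ROBO2, whose H3K27me3 call differed between the conditions. Taken condition by condition, 28 guidance genes carried both marks in each, where 22.5% of all genes did in the Vc+ libraries and 20.4% in the Vc- libraries. Another 28 in each carried H3K4me3 alone, where 56.3% of all genes did in Vc+ and 58.2% in Vc-. H3K27me3 alone, as at EPHA8, was found at 1.73% of all genes in Vc+ and 1.58% in Vc-. Neither mark, as at 3 guidance genes, was found at 19.4% of all genes in Vc+ and 19.7% in Vc-. At all 28 genes with both marks the islands of the marks overlapped each other, by a median of 2.1 kb in the Vc+ libraries and 1.7 kb in the Vc- libraries. At PLXNB2 in the Vc+ libraries the overlap was only 0.022 kb. Such overlap was not counted over all genes with both marks, so it cannot be read as particular to guidance genes. In bulk material, both marks on the same chromatin and each mark in different cells cannot be told apart.

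H3K27me3 was called at 30% of the semaphorins in each condition (exact 95% interval 11.9 to 54.3). That interval holds the shares of all genes, 24.2% in the Vc+ library and 22% in the Vc- library. In this family 6 of 20 genes carried H3K27me3 in both conditions and none in 1 condition alone. These were the secreted SEMA3B and SEMA3D, and the membrane-bound SEMA4F, SEMA5B, SEMA6C and SEMA6D. SEMA6D (GRCh38 chromosome 15, 47184089 to 47774228), which signals through plexins of class A in heart and nervous system, had the longest H3K27me3 of all 60 genes, at 40.2 kb in 6 islands in the Vc+ library and 39.2 kb in 7 islands in the Vc- library. One island lay across the start of the gene, 10.6 kb wide in the Vc+ library and 8.8 kb in the Vc- library, and the others lay inside the gene. The widest of these measured 16.8 kb in the Vc+ library, beginning 160.5 kb past the start, and 11.4 kb in the Vc- library, beginning 161.3 kb past it. H3K4me3 at SEMA6D sat at the start, in an island of 1.6 kb in each condition, and in an island of 2.8 kb in each condition 532.9 kb into the gene, without H3K27me3. A further H3K4me3 island of 0.8 kb was listed in the Vc+ library alone. SEMA5B (chromosome 3, 122909082 to 123028605) had 12.2 kb of H3K27me3 in the Vc+ library and 8.4 kb in the Vc- library, a ratio of 1.45 that falls short of the size used below to call a difference.

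A further 12 semaphorins, or 60%, carried H3K4me3 alone in both conditions, where 53.9% of all genes did. Among them were 5 of the 7 secreted class 3 genes: SEMA3A, SEMA3C, SEMA3E, SEMA3F and SEMA3G. SEMA3G, known from arterial endothelium, had 2 kb of H3K4me3 in the Vc+ library and 1.8 kb in the Vc- library. The longest H3K4me3 of the family was that of SEMA4C (chromosome 2, 96859718 to 96870830), a ligand of PLXNB2, with 11.2 kb in the Vc+ library and 7.8 kb in the Vc- library. Of this, 3 kb in Vc+ and 2.2 kb in Vc- belonged to an island beside the start of the neighbouring ANKRD39. SEMA6A followed with 8.2 kb in the Vc+ library and 7.2 kb in the Vc- library.

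Of the 8 families, the plexins had the highest ratio of H3K27me3 length between the conditions. H3K27me3 was called at 4 of 7 in the Vc+ library (exact 95% interval 18.4 to 90.1) and at 2 of 7 in the Vc- library (3.67 to 71). Over all genes the shares were 24.2% in Vc+ and 22% in Vc-. Of the 4 calls, that at PLXNB2 rested on 0.022 kb at the edge of its window, so the counts show no shift of the family. Over the family H3K27me3 covered 37.0 kb in the Vc+ library and 19.2 kb in the Vc- library, a ratio of 1.93, against 1.24 over the windows of all protein-coding genes. PLXNA2 and PLXNA4, both receptors of semaphorins in axon guidance, made up nearly all of this gap. PLXNA2 (chromosome 1, 208022242 to 208244384, minus strand) had 5.4 kb of H3K27me3 in 2 islands in the Vc+ library and none in the Vc- library. One of them, 2.2 kb wide from 208241801 to 208244000, lay 0.384 kb past the start, and the nearest H3K27me3 island of the Vc- library was 32.4 kb from it. The authors' score of that island was 15.6, which put it at percentile 61.3 of the list. The other, 3.2 kb wide and 169 kb into the gene, scored only 3.21, at percentile 11. H3K4me3 covered the same start in both conditions, with 2.8 kb in the Vc+ library and 2.6 kb in the Vc- library, so the start of PLXNA2 read as bivalent in the Vc+ libraries and as H3K4me3 alone in the Vc- libraries.

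At PLXNA4 (chromosome 7, 132123340 to 132648688, minus strand) H3K27me3 covered 24.4 kb in 4 islands in the Vc+ library and 12.6 kb in 2 islands in the Vc- library, a ratio of 1.94. The difference of 11.8 kb became 6.57 kb when the lengths were scaled to the covered length of each library. The island across the start was 11.6 kb wide in the Vc+ library and 7.6 kb in the Vc- library, while the next, 5 kb wide, was the same length in both. The other 2 islands of the Vc+ library lay 248 and 255 kb into the gene and scored 5.17 and 7.97, with no H3K27me3 island of the Vc- library within 232 kb. PLXNB2 was called through 0.022 kb at the edge of its window, from an island at the start of MAPK11 that overlapped an island of the Vc- library, so the libraries hardly differed there. PLXNC1, the receptor of SEMA7A, carried both marks, with 7.2 kb of H3K27me3 in the Vc+ library and 6.6 kb in the Vc- library. PLXND1 (chromosome 3, 129555214 to 129606676), the plexin that endothelial cells use to sense class 3 semaphorins, carried no H3K27me3 in any library and the longest H3K4me3 of all 60 genes, 12 kb in the Vc+ library and 11.8 kb in the Vc- library, in 5 islands each. PLXNA1 and PLXNB1 also carried H3K4me3 alone.

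**Figure D2:**
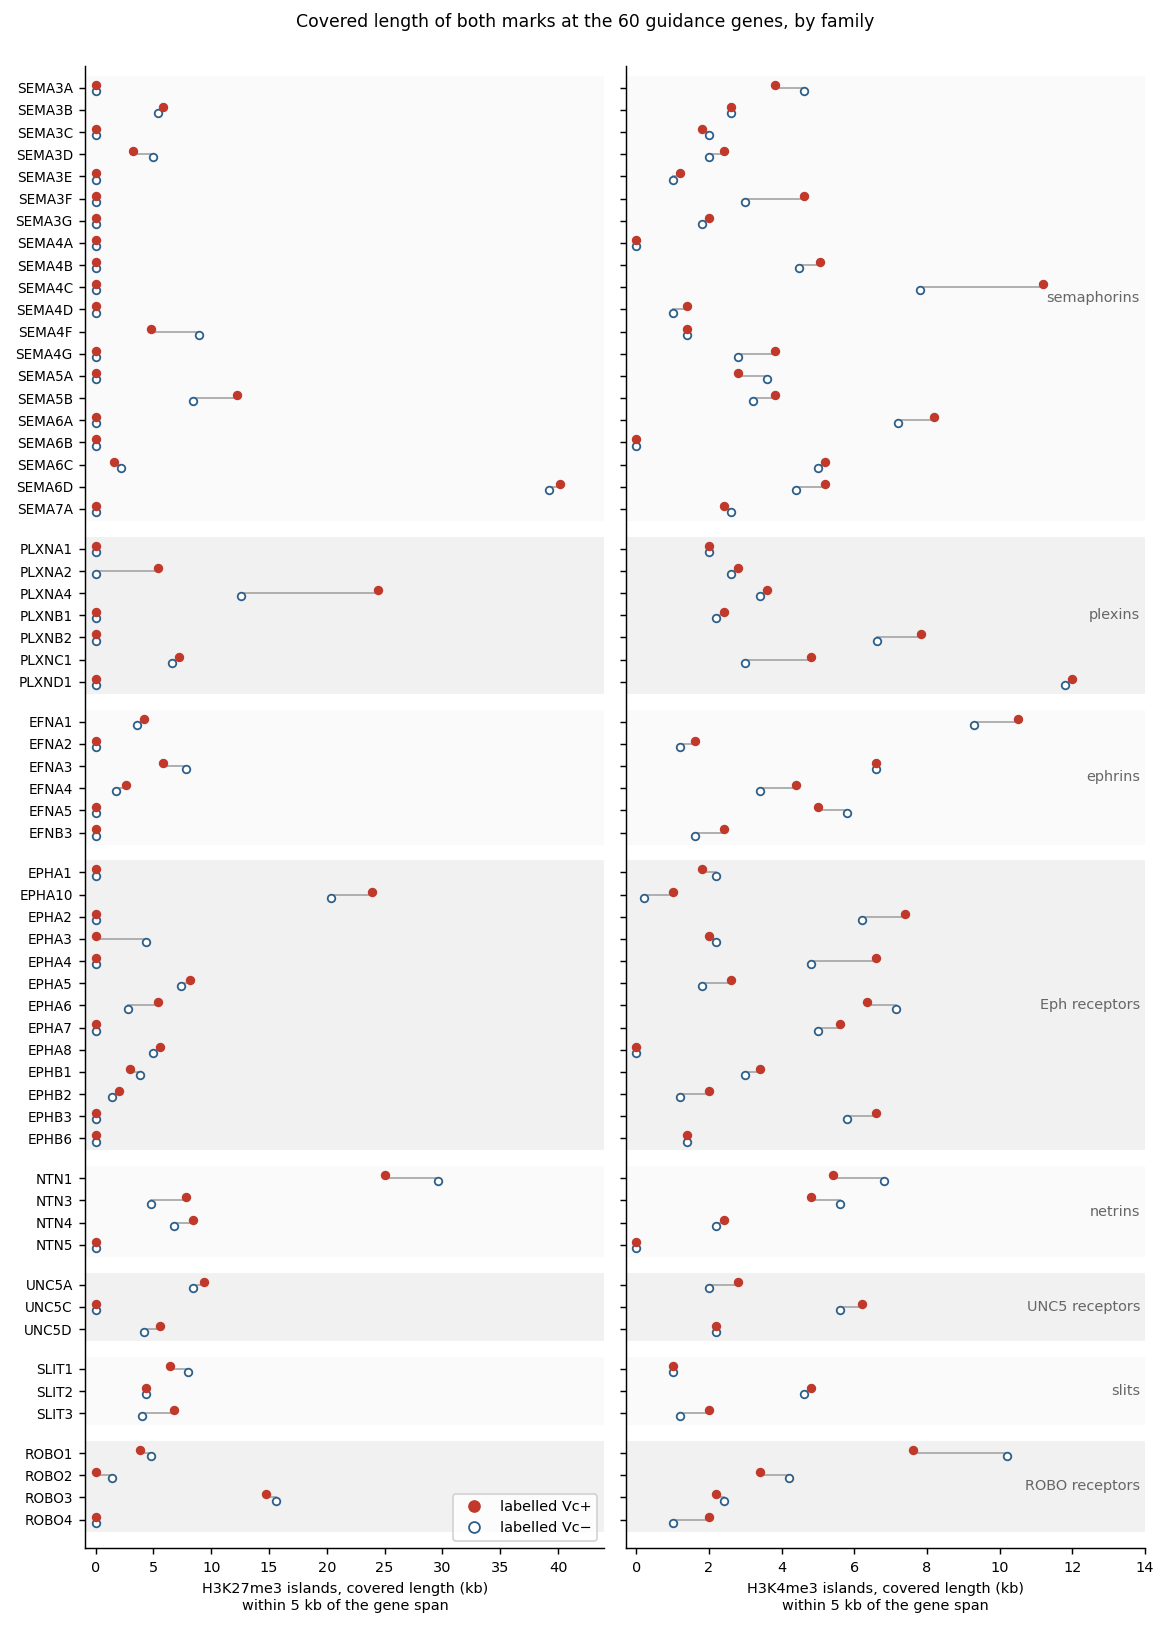
Covered length of H3K27me3 (left) and H3K4me3 (right) islands in kb within 5 kb of the span of each guidance gene, grouped by family, with filled red points for the Vc+ library, open blue points for the Vc- library and a line joining the pair. SEMA6D lies furthest right for H3K27me3 at 40.2 kb in Vc+ and 39.2 kb in Vc-, PLXNA4 shows the widest gap at 24.4 kb in Vc+ against 12.6 kb in Vc-, and PLXND1 lies furthest right for H3K4me3 at 12 kb in Vc+ and 11.8 kb in Vc-.

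Ephrins and Eph receptors were divided in a similar way. Over all genes, 18.5% carried both marks in both conditions and 53.9% carried H3K4me3 alone in both. EFNA1, EFNA3 and EFNA4, neighbours in a cluster on chromosome 1 that encode ephrins anchored by a lipid, carried both marks in both conditions, while EFNA2, EFNA5 and EFNB3 carried H3K4me3 alone. EFNA3 (155078837 to 155087538) had the longest H3K27me3 of the ephrins, 5.8 kb in the Vc+ library and 7.8 kb in the Vc- library, in an island across its start. At EFNA4 the mark lay outside the gene span, 6.66 kb past the start in the Vc+ library and 7.66 kb past it in the Vc- library. EFNA1, an ephrin known from endothelial cells exposed to inflammatory signals, combined 4.2 kb of H3K27me3 in the Vc+ library and 3.6 kb in the Vc- library with an H3K4me3 island at the start of 6.8 kb in the Vc+ library and 5.6 kb in the Vc- library.

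Of 13 Eph receptors, 5 carried both marks in both conditions (EPHA5, EPHA6, EPHA10, EPHB1 and EPHB2), where 18.5% of all genes did. Another 6 carried H3K4me3 alone in both (EPHA1, EPHA2, EPHA4, EPHA7, EPHB3 and EPHB6), where 53.9% of all genes did. EPHA10 (chromosome 1, 37713880 to 37765120), a receptor that lacks kinase activity, had the longest H3K27me3 at 23.9 kb in the Vc+ library and 20.3 kb in the Vc- library, beside only 1 kb of H3K4me3 in Vc+ and 0.2 kb in Vc-. EPHA2, the receptor of EFNA1 in endothelium, had the longest H3K4me3 of the family by the mean of both conditions, 7.4 kb in the Vc+ library and 6.2 kb in the Vc- library. EPHA6 had 5.4 kb of H3K27me3 in the Vc+ library and 2.8 kb in the Vc- library, in 1 island each. On a scale where negative positions lie ahead of the start, the island of the Vc+ library began at -3.19 kb and that of the Vc- library at -0.393 kb.

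EPHA3 (chromosome 3, 89107621 to 89482134), a receptor of ephrins of class A, went the other way from PLXNA2. It carried no H3K27me3 in the Vc+ library and 4.4 kb in the Vc- library, in 1 island from 89107001 to 89111400 that covered the start. The nearest H3K27me3 island of the Vc+ library was 1290 kb from it. Its score was 8.96, at percentile 46.9 of the list. Short H3K4me3 islands lay at the same start in both conditions, 1 kb wide in the Vc+ library and 0.6 kb in the Vc- library.

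All 3 slits carried both marks in both conditions, as did 3 of the 4 netrins, where 18.5% of all genes did. These families are small. The exact 95% interval of the H3K27me3 share was 29.2 to 100 for the slits and 19.4 to 99.4 for the netrins. The slits are also long, with a median span of 369 kb. NTN1 (chromosome 17, 9003087 to 9244000), the founding netrin, had 25 kb of H3K27me3 in 3 islands in the Vc+ library and 29.6 kb in 4 islands in the Vc- library, and NTN4, a netrin of basement membranes, had 8.4 kb in the Vc+ library and 6.8 kb in the Vc- library. NTN3 had 7.8 kb in the Vc+ library and 4.8 kb in the Vc- library, and the extra island, 3.2 kb wide, lay at the start of the neighbouring TBC1D24. SLIT1, the slit known mainly from the nervous system, had the longest H3K27me3 of the slits by the mean of both conditions, 6.4 kb in the Vc+ library and 8 kb in the Vc- library. SLIT2 had 4.4 kb in each. SLIT3 had 6.8 kb in the Vc+ library and 4 kb in the Vc- library, with 2 islands at the start in each condition that were both wider in the Vc+ library. The longest H3K4me3 of the slits was that of SLIT2, 4.8 kb in the Vc+ library and 4.6 kb in the Vc- library.

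The UNC5 receptors, through which netrins repel, had H3K27me3 at UNC5A and UNC5D and not at UNC5C. UNC5A (chromosome 5, 176810559 to 176880898) had 9.4 kb in the Vc+ library and 8.4 kb in the Vc- library, and UNC5D had 5.6 kb in the Vc+ library and 4.2 kb in the Vc- library. UNC5C carried H3K4me3 alone, 6.2 kb in the Vc+ library and 5.6 kb in the Vc- library. UNC5B, the endothelial netrin receptor left out of the count, carried both marks, with 2.8 kb of H3K27me3 in the Vc+ library and 2.2 kb in the Vc- library. EFNB2 and EPHB4, the arterial and venous pair also left out, carried H3K4me3 alone.

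Among the ROBO receptors, a pair of neighbouring genes differed in H3K27me3. ROBO3 (chromosome 11, 124865432 to 124881471), which controls midline crossing of axons, and ROBO4 (124883691 to 124897865), the ROBO of endothelial cells, lie next to each other. ROBO3 carried 14.8 kb of H3K27me3 within its window in the Vc+ library and 15.6 kb in the Vc- library. The islands ran on beyond the window, to 38.4 kb in the Vc+ library and 17.6 kb in the Vc- library. ROBO4 carried none in either condition. Its H3K4me3 was weak, with 2 kb in the Vc+ library at percentile 15.3 of the list and 1 kb in the Vc- library at percentile 9.4. ROBO4 was the only guidance gene whose strongest H3K4me3 island lay below percentile 20 in both conditions. ROBO1 (chromosome 3, 78597239 to 79767998, minus strand) had both marks at its start, with 3.8 kb of H3K27me3 in the Vc+ library and 4.8 kb in the Vc- library. A far stronger H3K4me3 island lay 748 kb into the gene without H3K27me3. It was 5.6 kb wide in the Vc+ library and 7.2 kb in the Vc- library and reached the highest score of the list, 1000, in both. That score was shared by 566 H3K4me3 islands of the Vc+ list and 816 of the Vc- list. It was reached at 9 guidance genes in Vc+ and 7 in Vc-, ROBO1 among them. The share of all genes that reach it was not counted, so these counts cannot be called high or low. ROBO2 (chromosome 3, 75906675 to 77649964) was called in the Vc- library alone, through an island of 1.4 kb deep inside the gene at 77040801 to 77042200 that scored 8.5. H3K4me3 islands began at 77038601 in both conditions. That of the Vc- library overlapped the H3K27me3 island by 0.4 kb, and that of the Vc+ library ended right before its position. The nearest H3K27me3 island of the Vc+ library was 1190 kb away.

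Of the 60 genes, 2 had an H3K27me3 call from the Vc+ library and not the Vc- library (PLXNA2 and, by its window edge, PLXNB2), where 4.36% of all genes did, and 2 had the reverse (EPHA3 and ROBO2), where 2.13% of all genes did. The 4 are among the 27 receptors, and 0 of the 33 ligands had a call in 1 condition alone, a difference that was not tested. With such counts no direction can be read. The islands at EPHA3 and ROBO2 scored below 10, and when only islands scoring at least 10 were used in both libraries the counts were 6 in Vc+ alone (EPHB2, PLXNA2, PLXNB2, SEMA3D, SEMA6C and SLIT3) and 0 in Vc- alone. Scores depend on the library, so this setting does not treat the libraries alike. H3K4me3 was called in 1 condition alone at 0 guidance genes, where 1.04% of all genes were called in Vc+ alone and 0.894% in Vc- alone.

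A gene was called longer or shorter where the covered lengths differed by at least 1.5 times and by at least 2 kb. By that rule H3K27me3 was longer in the Vc+ library at 5 guidance genes (PLXNA4, PLXNA2, NTN3, SLIT3 and EPHA6), where 7.03% of all genes were, and shorter at 2 (EPHA3 and SEMA4F), where 2.1% of all genes were. SEMA4F had 4.765 kb in the Vc+ library and 8.965 kb in the Vc- library, with an island of 3 kb, 5.15 kb past the start, listed in the Vc- library alone. Counting any difference, the mark was longer in the Vc+ library at 19 guidance genes, shorter at 11 and equal at 1, where over all genes it was longer at 3271, shorter at 1470 and equal at 302. The ratio of H3K27me3 length was 1.24 over the windows of all protein-coding genes and 1.27 over the whole libraries. Summed over the 60 genes the mark covered 258 kb in the Vc+ library and 239 kb in the Vc- library, a ratio of 1.08. When lengths were taken as shares of each library's covered length, the ratio turned to 0.849, and the counts became 2 longer (PLXNA2 and PLXNA4) and 6 shorter (EFNA3, EPHA3, NTN1, SEMA3D, SEMA4F and SLIT1). The direction of the sum therefore depends on the scaling. PLXNA2, PLXNA4, EPHA3 and SEMA4F kept their call, with scaled differences of 4.24, 6.57, -4.4 and -5.22 kb, while NTN3, SLIT3 and EPHA6 were still longer in the Vc+ library after scaling, by 1.33, 1.34 and 1.44 kb, without passing the rule. For H3K4me3, 0 guidance genes were longer and 0 shorter by that rule, where 2.77% of all genes were longer and 0.319% shorter, and the summed ratio was 1.09, or 0.976 as shares.

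**Figure D3:**
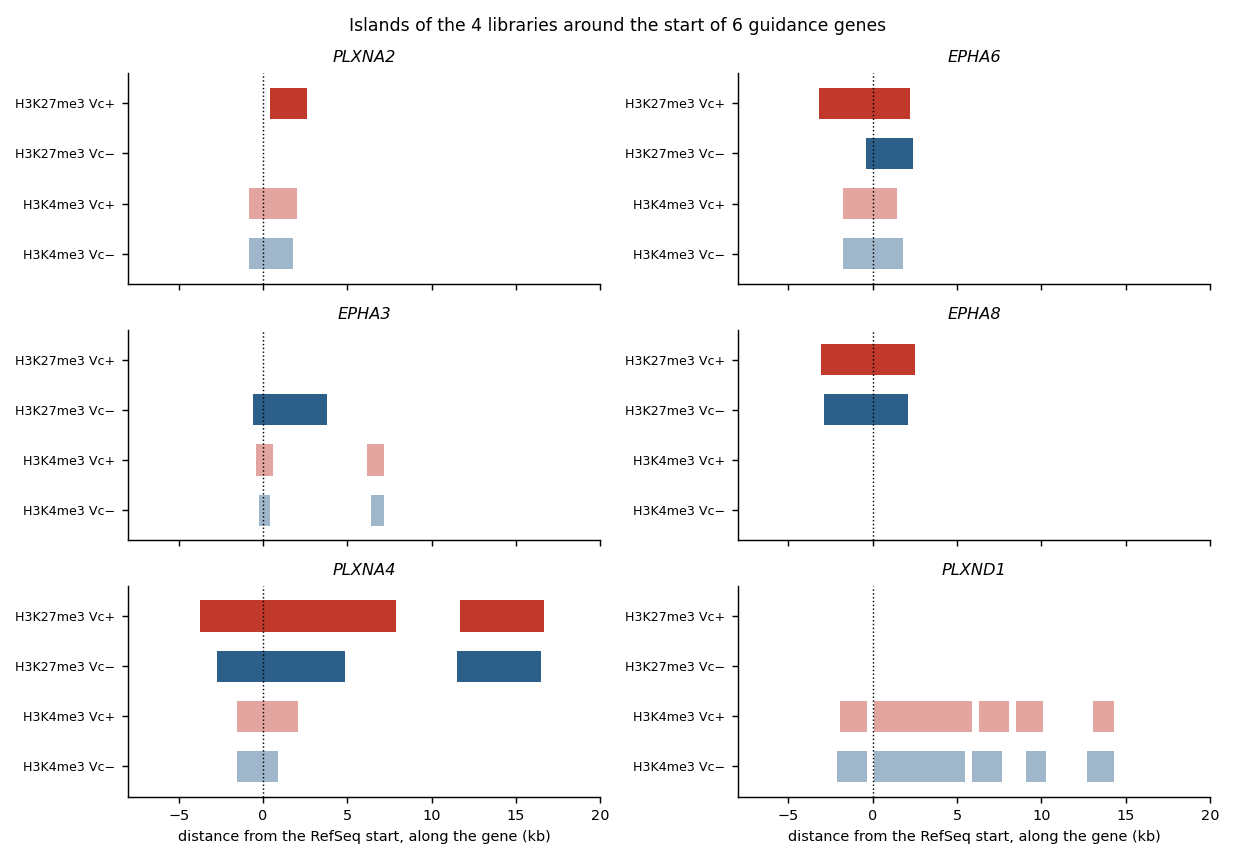
Islands of the 4 libraries around the start of 6 guidance genes, with the distance from the RefSeq start along the gene in kb (horizontal axes, start at the dotted line) and 1 row for each mark and condition (red Vc+, blue Vc-, dark H3K27me3, pale H3K4me3). H3K27me3 is present at PLXNA2 in the Vc+ library alone and at EPHA3 in the Vc- library alone, reaches further at PLXNA4 and EPHA6 in the Vc+ library, stands without H3K4me3 at EPHA8 and is absent at PLXND1.

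Gene starts were read next, since a call at the start does not depend on gene length. RefSeq gave a start for 52 of the 60 genes and for 15100 of all genes. Within 2.5 kb of the start both marks were found at 20 of 52 guidance genes in the Vc+ libraries and at 20 of 52 in the Vc- libraries, or 38.5%, where 14.6% of all genes had both in Vc+ and 13.2% in Vc-. H3K4me3 alone was found at 25 in Vc+ and 26 in Vc-, or 48.1% in Vc+ and 50% in Vc-, where all genes stood at 59.4% in Vc+ and 60.5% in Vc-. H3K27me3 alone was found at EPHA8 only, where 1.38% of all genes had it in each condition, and neither mark at 6 guidance genes in Vc+ and 5 in Vc-, where 24.7% of all genes had neither in Vc+ and 24.9% in Vc-. The state of the start differed between the conditions at PLXNA2, EPHA3 and SEMA3C, where 5.82% of all genes differed. At SEMA3C this was 0.112 kb of H3K4me3 at the window edge in the Vc- library. For 14 of the 52 genes, PLXNC1 and ROBO3 among them, the start in the table lies inside the gene span and another promoter may be the one in use. Taking the 5′ end of the span instead gave 18 genes with both marks in each condition.

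Because Polycomb targets are known to be rich in CpG dinucleotides, the 250 bases before each start were read. The sequences shown are those of the genes whose start differed between conditions, and, among genes with a sequence at hand, of the first 3 by H3K27me3 length and the first 3 by H3K4me3 length without H3K27me3. They are from RefSeq on GRCh38 patch 14, 5′ to 3′ on the strand of the gene, with each CpG in capitals. The motif CG reads the same on both strands and cannot overlap itself.
PLXNA2 (chr1:208244385-208244634, minus strand): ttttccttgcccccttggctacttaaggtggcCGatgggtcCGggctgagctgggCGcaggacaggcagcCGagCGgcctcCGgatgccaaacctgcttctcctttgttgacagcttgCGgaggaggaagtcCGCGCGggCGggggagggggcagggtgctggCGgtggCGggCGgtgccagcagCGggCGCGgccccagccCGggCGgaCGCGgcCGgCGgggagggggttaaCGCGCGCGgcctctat
EPHA3 (chr3:89107371-89107620, plus strand): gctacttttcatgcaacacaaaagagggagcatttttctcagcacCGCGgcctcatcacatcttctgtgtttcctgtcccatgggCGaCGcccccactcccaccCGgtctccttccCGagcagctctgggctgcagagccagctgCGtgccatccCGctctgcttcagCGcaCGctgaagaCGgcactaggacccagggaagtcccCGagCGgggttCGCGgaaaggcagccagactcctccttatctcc
SEMA3C (chr7:80922390-80922639, minus strand): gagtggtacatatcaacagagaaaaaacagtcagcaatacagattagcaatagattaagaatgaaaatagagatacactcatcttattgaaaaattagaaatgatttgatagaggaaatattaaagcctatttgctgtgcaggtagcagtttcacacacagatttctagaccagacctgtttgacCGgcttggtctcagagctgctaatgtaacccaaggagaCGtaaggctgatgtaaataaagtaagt
SEMA6D (chr15:47183839-47184088, plus strand): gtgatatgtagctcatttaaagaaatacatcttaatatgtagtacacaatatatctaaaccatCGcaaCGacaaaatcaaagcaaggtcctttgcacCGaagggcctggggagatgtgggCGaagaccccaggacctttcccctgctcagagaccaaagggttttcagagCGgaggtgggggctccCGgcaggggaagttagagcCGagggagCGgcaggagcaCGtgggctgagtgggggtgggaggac
PLXNA4 (chr7:132576471-132576720, minus strand): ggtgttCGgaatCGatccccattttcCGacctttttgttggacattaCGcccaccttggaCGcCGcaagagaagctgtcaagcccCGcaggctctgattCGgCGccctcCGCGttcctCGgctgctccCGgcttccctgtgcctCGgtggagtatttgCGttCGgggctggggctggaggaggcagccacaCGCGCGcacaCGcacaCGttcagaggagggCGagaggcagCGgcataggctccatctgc
ROBO3 (chr11:124875932-124876181, plus strand): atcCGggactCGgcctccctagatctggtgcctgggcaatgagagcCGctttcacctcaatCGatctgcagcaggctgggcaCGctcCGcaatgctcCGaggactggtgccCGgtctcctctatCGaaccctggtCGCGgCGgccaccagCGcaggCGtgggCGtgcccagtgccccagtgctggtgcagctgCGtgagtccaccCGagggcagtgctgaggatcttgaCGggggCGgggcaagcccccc
PLXND1 (chr3:129606677-129606926, minus strand): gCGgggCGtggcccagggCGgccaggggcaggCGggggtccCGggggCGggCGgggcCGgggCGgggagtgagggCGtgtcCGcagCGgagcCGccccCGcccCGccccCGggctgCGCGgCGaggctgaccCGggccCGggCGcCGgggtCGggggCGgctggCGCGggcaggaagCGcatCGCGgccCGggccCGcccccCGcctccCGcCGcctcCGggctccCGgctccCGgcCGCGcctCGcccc
SEMA4C (chr2:96870081-96870330, minus strand): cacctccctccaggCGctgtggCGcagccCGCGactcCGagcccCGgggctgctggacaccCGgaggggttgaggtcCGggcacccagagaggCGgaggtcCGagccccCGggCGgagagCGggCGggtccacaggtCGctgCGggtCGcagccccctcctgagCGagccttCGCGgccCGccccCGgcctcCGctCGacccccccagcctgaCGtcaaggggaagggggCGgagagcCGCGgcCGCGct
EPHA2 (chr1:16156070-16156319, minus strand): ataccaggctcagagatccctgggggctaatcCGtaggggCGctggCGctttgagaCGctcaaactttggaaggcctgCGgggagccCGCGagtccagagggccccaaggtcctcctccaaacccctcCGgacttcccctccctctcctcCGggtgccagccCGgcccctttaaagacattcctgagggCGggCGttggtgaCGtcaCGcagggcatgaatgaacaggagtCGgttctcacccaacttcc

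PLXNA2, bivalent in the Vc+ libraries alone, held 27 CpG in its 250 bases, and EPHA3, bivalent in the Vc- libraries alone, held 15. SEMA3C held 2. The genes shown for long H3K27me3 ranged from 9 CpG at SEMA6D through 19 at ROBO3 to 23 at PLXNA4, and the genes shown for long H3K4me3 and no H3K27me3 from 15 at EPHA2 through 30 at SEMA4C to 41 at PLXND1. Across the 52 guidance genes the median was 17, equal to the median of 17 over all 15100 starts, and all 52 held at least 1 CpG, as did 96.9% of all starts. Starts with both marks in both conditions had a median of 19 (range 3 to 42, 19 genes), and starts with H3K4me3 alone in both had a median of 18 (range 4 to 46, 24 genes), and the ranges of these classes overlapped almost fully. The 5 starts with neither mark had a median of 7. They were those of EPHB6, NTN5, PLXNC1, ROBO2 and SEMA4A, and at all but NTN5 the RefSeq start lies inside the gene span. EPHB6, PLXNC1 and ROBO2 carried H3K4me3 elsewhere in their windows, so this class does not stand for unmarked genes. For all genes in the same states the medians were 23 with both marks, 21 with H3K4me3 alone and 3 with neither. No sequence is shown for EFNB3, EPHA10, NTN1, NTN3, SEMA3A, SEMA6A, SEMA6B and UNC5D.

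**Figure D4:**
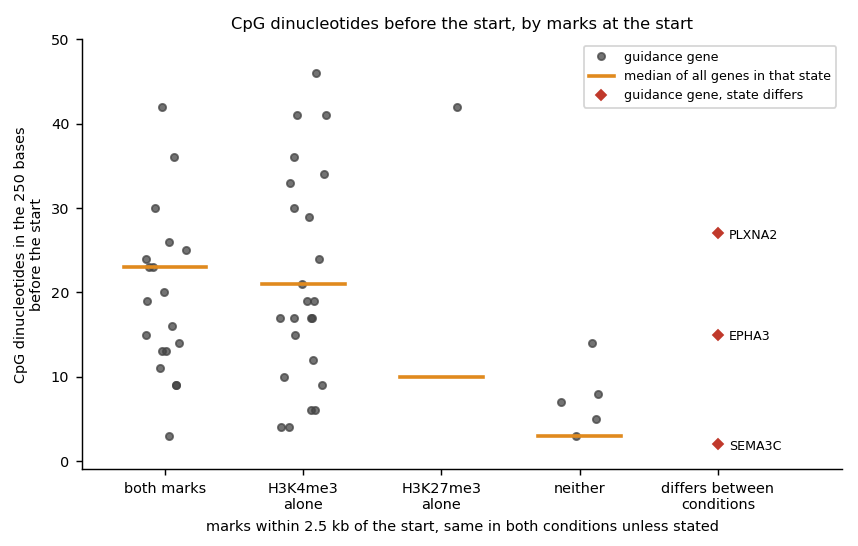
Number of CpG dinucleotides in the 250 bases before the start (vertical axis) of each guidance gene, by the marks within 2.5 kb of the start in both conditions, with the genes whose state differed between the conditions at the right; orange lines are the medians of all genes in that state. Guidance genes with both marks (median 19) and with H3K4me3 alone (median 18) overlap over almost the whole range, and those with neither have a median of 7. For most of those with neither, the RefSeq start lies inside the gene span.

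Other genes of the guidance pathways were read in the same way. Of 47 coreceptors, further cues and intracellular partners, 17 carried H3K27me3 in the Vc+ library and 18 in the Vc- library, or 36.2% in Vc+ and 38.3% in Vc-. H3K4me3 was carried by 45 in each, or 95.7%. Over all genes H3K27me3 stood at 24.2% in Vc+ and 22% in Vc-, and H3K4me3 at 78.8% in Vc+ and 78.7% in Vc-. The partners, with a median span of 150 kb, are longer than genes at large. Their shares lay near those of all genes with a span of 100 kb or more. Those stood at 38.1% in Vc+ and 35.2% in Vc- for H3K27me3, and at 94% in Vc+ and 94.1% in Vc- for H3K4me3. The partners were not split by span. NRP1 and NRP2, the neuropilins that bind class 3 semaphorins and vascular endothelial growth factor on endothelium, carried H3K4me3 alone, with 10.8 kb in the Vc+ library and 12.2 kb in the Vc- library at NRP1, and 9.8 kb in the Vc+ library and 7.4 kb in the Vc- library at NRP2. DCC, the attractive netrin receptor, carried both marks, with 3 kb of H3K27me3 in the Vc+ library and 3.6 kb in the Vc- library. All 5 genes of the collapsin response mediator family (CRMP1, DPYSL2, DPYSL3, DPYSL4 and DPYSL5), which relay semaphorin signals to the cytoskeleton of axons, carried both marks in both conditions. Over all genes 18.5% did. DPYSL2 had 27.4 kb of H3K27me3 in the Vc+ library and 24.2 kb in the Vc- library. The kinases FYN, ABL1 and PTK2, used by many receptors, carried H3K4me3 alone. So did 19 of the 28 intracellular partners in both conditions, where 53.9% of all genes did. Both marks in both conditions were found at 8 of the 28, with NGEF, DOCK1 and MICAL3 beside the collapsin response genes. MICAL2, with 2 kb of H3K27me3 in the Vc- library, was the only partner called in 1 condition alone.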

How the data were processed

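Chromatin immunoprecipitation and sequencing was made by the submitters for 2 marks and an input in each of 2 conditions, 6 samples in all. The 2 inputs were not used here. Samples were grouped by their titles. The deposited lists give 1 score per island, which from its range (just above 2 to 1000) appears to be a false discovery rate as −log10. This value is the authors' own and was ranked only within a list; 1 alternative setting applied the same minimum of 10 to both lists. The tools Bowtie2, deepTools and SICER, and hg38 and GRCh38 as builds, are given per the submitters' processing notes; roles, versions and settings are not given in the sources used here. Island widths are multiples of 200 bp.

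Island starts and ends were each moved up by 1 base, from a count from 0 to a count from 1 with both ends included. Gene spans came from a RefSeq table of GRCh38 patch 14, which gives no exons, so exonic and intronic parts are not told apart. A gene was called where an island overlapped its span with 5 kb on either side by at least 1 bp. Lengths were clipped to that window. Intervals are exact Clopper-Pearson at 95% and cover counting error only. The code was tested on simulated data and checked against bedtools 2.31.1. Python 3.11.15, numpy 2.4.6, pandas 2.3.3 and scipy 1.17.1 were used.

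The members and lists were chosen with earlier results of these data known. Genes were named by a rule: every member whose call differed, the 8 largest differences of each mark that pass 1.5 times and 2 kb (7 passed), the longest of each family and mark, and members without an island. Other members named were chosen after their values were seen. TDGF1, a pluripotency marker, was matched by an older symbol. 1 marker of the blood list is not reported here.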

Additional observations from a re-analysis of the deposited data

How the results depend on the processing

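Of 66 alternative values over 25 results, 51 kept their direction and lay within 1.5 times of the reported value. Windows of 0, 1 and 10 kb around the span, gene starts, and islands away from the starts of other genes all left the numbers of genes called within that limit; the last of these, and the 5′ end of the span as the start, were chosen after seeing the data. The counts of H3K27me3 calls in 1 condition alone changed with the score: with a score of at least 10 they were 6 in Vc+ alone and 0 in Vc- alone, and with at least 1000 bp covered 1 in Vc+ alone, since the overlap at PLXNB2 is shorter than that. For H3K4me3, 1 gene (ROBO4) was called in Vc+ alone with a score of at least 10, 1 (EPHA10) in Vc+ alone with at least 1000 bp covered, and 1 (ROBO4) in Vc- alone when the longer list was shortened, lowest scores first, to equal covered length; the cause was not tested. With islands closer than 2 kb merged, SLIT3 no longer passed as longer and SEMA3D passed as shorter. Scaling to shares of the library's covered length gave 2 genes with longer and 6 with shorter H3K27me3 and turned the summed ratios round, to 0.849 for H3K27me3 and 0.976 for H3K4me3, because the Vc+ lists cover more of the genome. No paired analysis was possible because each mark and condition had 1 library. For the same reason no library could be left out and the spread between cultures is unmeasured, and read depth is unknown.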
